A study of Mus musculus with 94 samples.

Results

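Rmrp, Rpph1, Rnu12 and Rnu73b are 4 genes for short structural RNAs, and they were chosen by symbol from the deposited gene tables because earlier results of these data showed them high in PRO-seq after RAD21 loss. They are 4 of the 22529 rows of the PRO-seq table, and all 4 also have a row in each of the 3 poly(A) RNA tables (15363, 24421 and 14997 rows), so none was absent there. The files label Rmrp and Rpph1 as ncRNA and Rnu12 and Rnu73b as snRNA. RefSeq lists Rnu73b as the small nucleolar RNA Snord73b, inside the ribosomal protein gene Rps3a1.

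Rmrp is the RNA of RNase MRP, which cuts the precursor of ribosomal RNA. Rpph1 is the RNA of RNase P, which trims the leading end of transfer RNA precursors, and the 2 enzymes share most of their proteins. Rnu12 is the U12 small nuclear RNA, which pairs with the branch site of the rare introns removed by the minor spliceosome. Box C/D small nucleolar RNAs such as the one named by Rnu73b guide methylation of other RNAs, and are usually cut from introns of host genes. RNA polymerase III makes Rmrp and Rpph1 and RNA polymerase II makes U12, from upstream promoters that share a proximal sequence element and often an octamer.

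The cells were female mouse embryonic stem cells, CAST/Ei x 129/Sv/Jae hybrids of a Tsix-stop line, grown on irradiated feeder fibroblasts with LIF and then differentiated as embryoid bodies. One line carried RAD21, the core cohesin ring subunit, fused to an FKBP degron (clones C4 and G9), and the other carried WAPL, which releases cohesin from DNA, fused to the same degron (clones H7 and H2). dTAG-13 at 500 nM, which brings FKBP-tagged protein to degradation, was set against the same volume of DMSO vehicle, so the DMSO cells carried the degron too. The study's title names cohesin eviction and retention, Polycomb repression and X-inactivation. Nascent RNA (PRO-seq, which maps engaged RNA polymerases) came from RAD21-FKBP embryoid bodies at day 7, given dTAG-13 or DMSO for 8 h, with 1 library per clone and arm. Poly(A) RNA came from RAD21-FKBP embryoid bodies at day 10 after 8 h (1 library per clone and arm), from WAPL-FKBP embryoid bodies treated from day 4 to day 7 (3 libraries per arm, 2 of clone H7 and 1 of clone H2) and from day 7 to day 10 (2 libraries per arm, both H7). These are 18 of the 94 samples. Each clone is 1 cell line, and the labels do not say that libraries of 1 clone came from separate cultures, so the p-values below measure the spread between these libraries only.

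Total counts were between 14269544.5 and 34335988.5 in PRO-seq and between 8413212 and 35388461 in poly(A) RNA. Levels are CPM (counts scaled to a library total of 1e+06, after TMM scaling), and they are not per length, so levels are not compared between genes. The degron acts on protein, and nascent Rad21 averaged 187 ± 5.98 CPM with dTAG-13 and 168 ± 0.154 CPM with DMSO (SD, n = 2 each), which gives no check of the labels. Markers of stem and early embryoid body cells moved with the arms in PRO-seq: 8 of the 12 listed fell, beside 4.66% of all tested genes (5 of the 12 with DESeq2), none rose, none was at 0, and their summed level was 539 to 546 CPM with dTAG-13 and 733 to 887 CPM with DMSO. The 5 feeder fibroblast markers summed to 9.72 to 10.7 CPM with dTAG-13 and 7.74 to 8.65 CPM with DMSO, 0 of the 4 tested passed, and Postn was under 3 counts in at least 1 library. The part of cell makeup in the values below was not tested, and in bulk samples a change in the number of cells of a type and a change in RNA per cell cannot be told apart.

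The reference tables hold no promoter window under the names of the 4 RNAs, but RefSeq places Ccdc107 next to Rmrp and Parp2 next to Rpph1, and the windows of those 2 genes cover DNA on the side that faces the short RNA, in the case of Ccdc107 without reaching Rmrp. They are shown because promoters of these short RNAs are built from a few named motifs. The windows are from RefSeq, build GRCm38.p6, plus strand, and run from 250 bases before to 50 after the start of Ccdc107 (chr4:43493115-43493414) and of Parp2 (chr14:50807666-50807965). Capitals mark the letters ATGCAAAT (the octamer), CACCNTNA (a short form of the proximal sequence element) and TATAA (the core of the box bound by TBP) on either strand, and no matches overlap.
Ccdc107, beside Rmrp: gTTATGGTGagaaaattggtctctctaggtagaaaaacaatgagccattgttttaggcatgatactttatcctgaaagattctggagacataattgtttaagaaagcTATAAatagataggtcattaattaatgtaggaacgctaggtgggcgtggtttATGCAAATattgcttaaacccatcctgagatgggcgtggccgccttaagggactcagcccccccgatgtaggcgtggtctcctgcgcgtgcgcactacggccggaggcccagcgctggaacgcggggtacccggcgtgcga
Parp2, beside Rpph1: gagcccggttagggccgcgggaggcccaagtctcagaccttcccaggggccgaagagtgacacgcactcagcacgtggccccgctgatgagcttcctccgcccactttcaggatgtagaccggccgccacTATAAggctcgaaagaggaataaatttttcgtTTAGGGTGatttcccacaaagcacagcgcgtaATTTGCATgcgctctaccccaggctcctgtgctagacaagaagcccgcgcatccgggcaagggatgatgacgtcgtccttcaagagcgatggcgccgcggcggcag
Both windows held all 3 motifs. Of the 8 neighbour and host genes 5 had a promoter window, and the matches of those not printed are not given here. In the Ccdc107 window the octamer was at positions 160 to 167 from the left end on the plus strand, the CACCNTNA match at 2 to 9 on the minus strand, and the TATAA letters lay between them on the plus strand. In the Parp2 window, which also takes in one end of Rpph1 itself, the octamer at 195 to 202 and the CACCNTNA match at 163 to 170 were on the minus strand, and the TATAA at 131 to 135 was on the plus strand. Of all 32851 promoter windows of the same length, 1.74% held the octamer, 12.2% the CACCNTNA letters, 24.9% the TATAA letters and 0.0944% all 3. A match is a description of the letters and shows no binding.

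Rmrp and Rpph1, the catalytic RNAs made by RNA polymerase III, were several-fold higher in nascent RNA after 8 h of RAD21 loss. Rmrp had 7826 counts in clone C4 and 5710.5 in clone G9 with dTAG-13, against 1578.5 in C4 and 1218 in G9 with DMSO. In CPM this was 337 in C4 and 392 in G9 with dTAG-13, against 45.1 in C4 and 86.5 in G9 with DMSO. Both dTAG-13 libraries lay far above both DMSO libraries, and within DMSO clone G9 was the higher. The means were 365 ± 38.9 CPM with dTAG-13 and 65.8 ± 29.2 CPM with DMSO (SD, n = 2 each), a fitted log2 difference of 2.55 ± 0.098 (SE), or 5.85-fold.

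Rpph1 had 2219 counts in C4 and 1206 in G9 with dTAG-13, against 803 in C4 and 368.5 in G9 with DMSO. Its level was 95.6 CPM in C4 and 82.8 CPM in G9 with dTAG-13, against 23.0 CPM in C4 and 26.2 CPM in G9 with DMSO. The libraries of each arm were close together and the arms did not overlap. The means were 89.2 ± 9.03 CPM with dTAG-13 and 24.6 ± 2.26 CPM with DMSO (SD, n = 2 each), with a fitted log2 difference of 1.88 ± 0.103 (SE), or 3.68-fold.

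Rnu12, the RNA polymerase II product of the minor spliceosome, was the one whose dTAG-13 libraries differed by the largest ratio. It had 2877 counts in C4 and 1026 in G9 with dTAG-13, against 708.5 in C4 and 400.5 in G9 with DMSO. The level was 124 CPM in C4 and 70.5 CPM in G9 with dTAG-13, against 20.3 CPM in C4 and 28.4 CPM in G9 with DMSO. Clone C4 was the higher with dTAG-13 and the lower with DMSO. The means were 97.2 ± 37.8 CPM with dTAG-13 and 24.3 ± 5.78 CPM with DMSO (SD, n = 2 each), and the fitted log2 difference was 2.02 ± 0.155 (SE), or 4.06-fold.

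Rnu73b, the intron-hosted guide RNA, had the lowest counts and the largest fold of the 4. It had 352 counts in C4 and 215 in G9 with dTAG-13, against 55 in C4 and 39 in G9 with DMSO. Its level was 15.2 CPM in C4 and 14.8 CPM in G9 with dTAG-13, against 1.57 CPM in C4 and 2.77 CPM in G9 with DMSO. The dTAG-13 libraries were nearly equal and both lay above both DMSO libraries. The means were 15.0 ± 0.281 CPM with dTAG-13 and 2.17 ± 0.845 CPM with DMSO (SD, n = 2 each), with a fitted log2 difference of 2.89 ± 0.226 (SE), or 7.42-fold. Whether reads were counted by strand, and how reads of a host intron were assigned, is not given in the sources used here, so reads of the precursor of Rps3a1 may be among those of Rnu73b. Rps3a1 itself was not analysed here in PRO-seq.

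**Figure D1:**
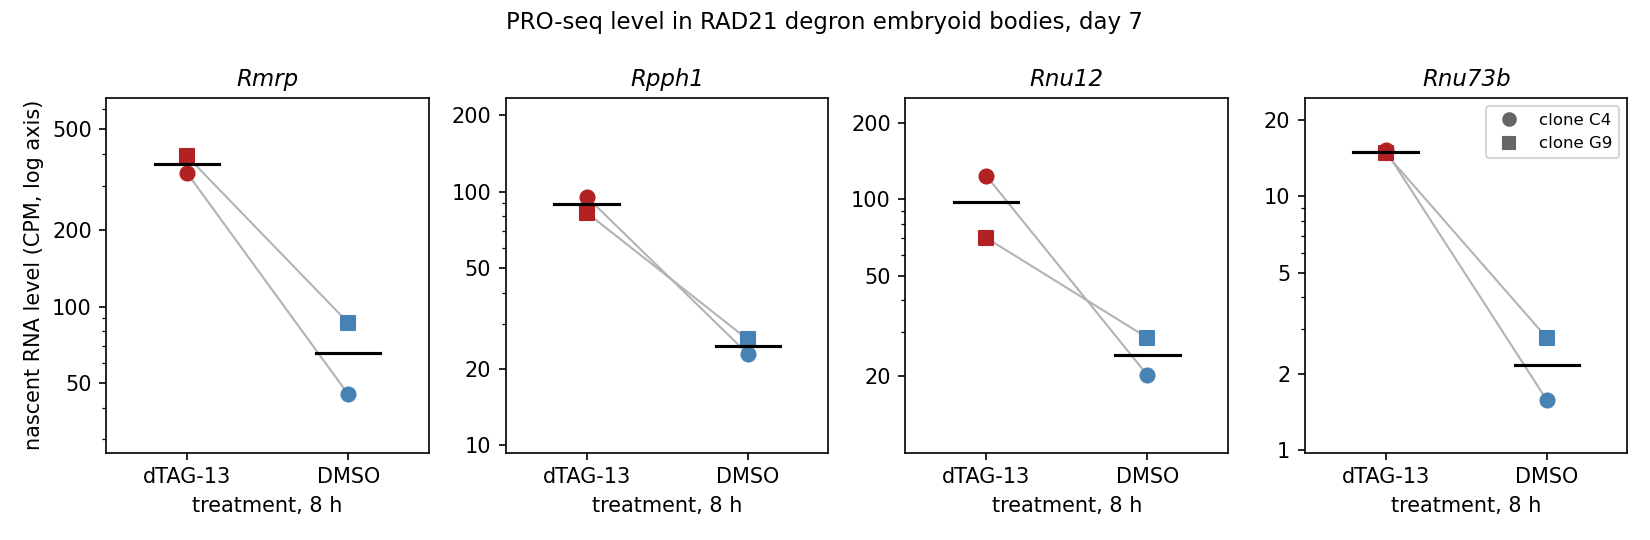
Nascent RNA level (CPM, log axis, each panel with its own range of the same log span) of the 4 short RNAs in RAD21-FKBP embryoid bodies at day 7, after 8 h of dTAG-13 or DMSO. Points are libraries (circle, clone C4; square, clone G9), grey lines join the libraries of a clone and black bars are means; in every panel both dTAG-13 points lie above both DMSO points.

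Since this contrast was used to choose the 4 RNAs, these differences and the places given below are a description and carry no test. The arms did not overlap for 4 of 4. Both dTAG-13 libraries lay above both DMSO libraries for 14.5% of the 16496 tested genes, and below both for 15.9%, while 5.9% were called higher and 4.66% lower (edgeR quasi-likelihood test with clone in the model, Benjamini-Hochberg adjusted p under 0.05). With clone left out of the model, or with any 1 of the 4 libraries left out, edgeR called 0 genes of this table, so each call between the arms in nascent RNA, the markers above included, is lost there. By size of rise, Rnu73b was at place 2, Rmrp at 4, Rnu12 at 21 and Rpph1 at 26 of the 16496. The other genes ranked above Rpph1 all had lower levels: of the 11868 genes with an average of at least 3 log2 CPM, 0 outside the 4 had a larger log2 difference than the lowest of them. The next 4 were Kctd16 at 1.66, Ebf2 at 1.45, Stxbp5l at 1.40 and Anxa1 at 1.37. The median log2 difference of that class was -0.02. Together the 4 RNAs took 0.0583% of all counts in C4 and 0.0546% in G9 with dTAG-13, against 0.00916% in C4 and 0.0142% in G9 with DMSO.

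**Figure D2:**
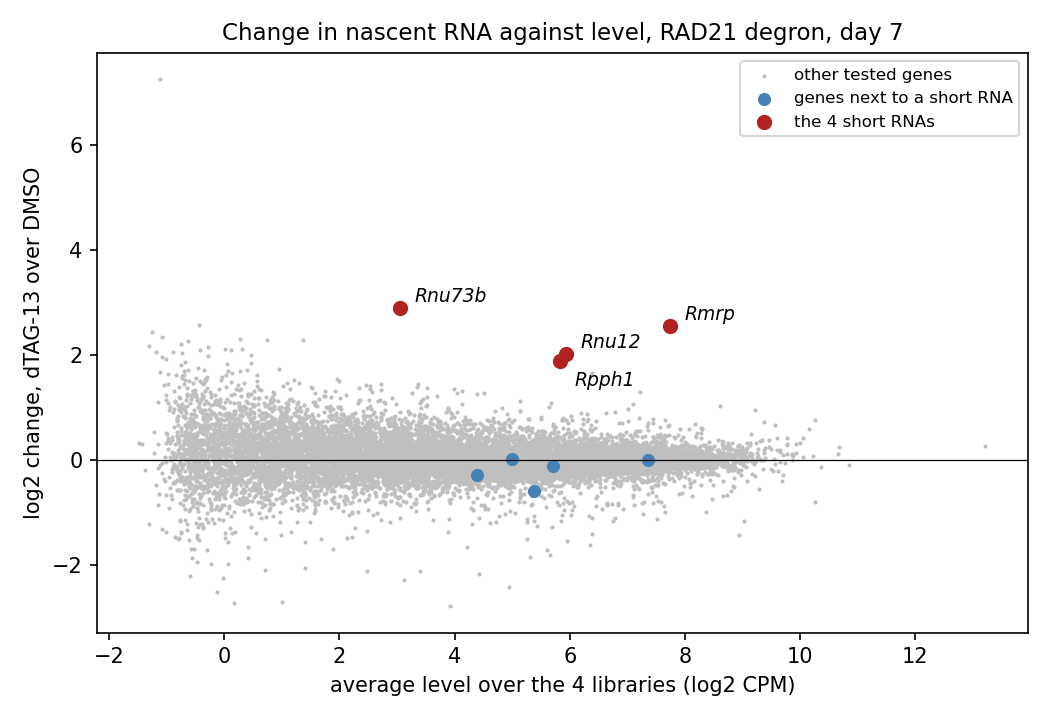
Log2 difference in nascent RNA (dTAG-13 over DMSO, edgeR) against average log2 CPM over the 4 PRO-seq libraries, 1 point per tested gene. The 4 short RNAs (red) lie between 1.88 and 2.89, above the genes of like level, and the 5 tested genes next to 1 of them (blue) lie between -0.60 and 0.02.

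The rise was larger in clone C4 than in clone G9 for each of the 4. The ratio of dTAG-13 to DMSO for Rmrp was 7.47-fold in C4 and 4.54-fold in G9. For Rpph1 it was 4.16-fold in C4 and 3.17-fold in G9, and for Rnu73b 9.64-fold in C4 and 5.34-fold in G9. Rnu12 differed most between clones, at 6.12-fold in C4 and 2.48-fold in G9. Over the 2 clones the log2 ratio had an SD of 0.509 for Rmrp, 0.279 for Rpph1, 0.922 for Rnu12 and 0.604 for Rnu73b. The SE of the fit given above is smaller for each RNA and draws on the spread of all genes. With 1 residual degree of freedom, it is not a measure of each RNA's own spread between clones. With a pseudocount of 0.5 CPM the log2 excess of C4 over G9 was 0.71 for Rmrp, 0.39 for Rpph1, 1.29 for Rnu12 and 0.69 for Rnu73b, beside a median of -0.001 and a 10th to 90th percentile of -0.38 to 0.39 over all tested genes on the same scale. With 1 library per clone and arm this difference could not be tested. With the same pseudocount, the 4 RNAs were the 4 largest rises of all tested genes in C4. In G9 Rnu73b and Rmrp held places 1 and 2, Rpph1 place 28 and Rnu12 place 95. These places come from the contrast used to choose the 4 RNAs.

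**Figure D3:**
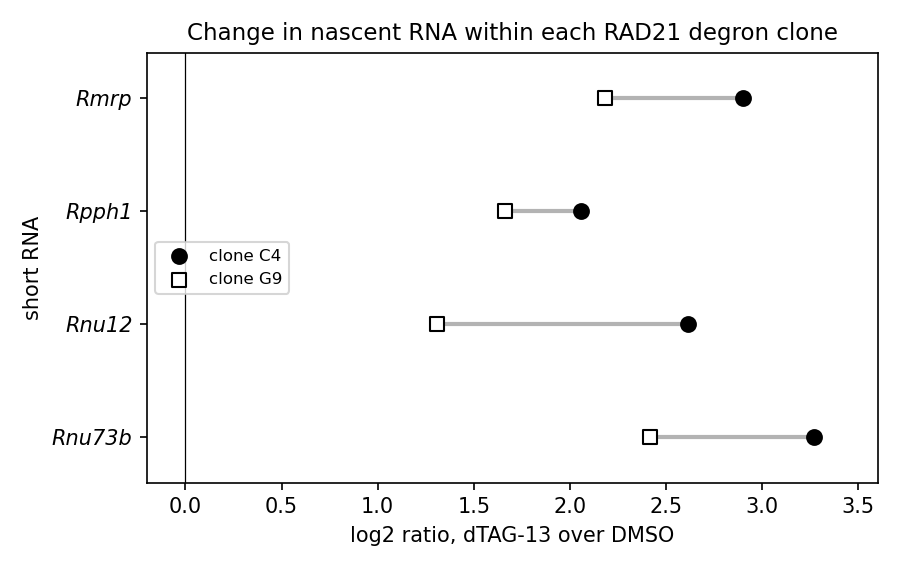
Log2 ratio of dTAG-13 to DMSO in nascent RNA (x axis) for each short RNA (rows), in clone C4 (filled circle) and clone G9 (open square), 1 library per clone and arm. All 8 ratios are above 1 on the log2 scale, and the C4 ratio is the larger in each row.

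The difference between the clones themselves, over both arms, is not the contrast by which the 4 RNAs were chosen, but it comes from the same 4 libraries. It was tested with 1 residual degree of freedom, and each clone is 1 cell line. Rmrp was higher in clone G9 than in clone C4, at a log2 difference of 0.54 ± 0.0942 (SE; edgeR adjusted p = 2.709e-05), with the higher value in G9 in both arms. DESeq2 gave 0.58 with an adjusted p of 0.288, so this call rests on the tool. The log2 rise of Rmrp with dTAG-13 also differed between the clones by 0.719, more than the difference called here. The p-value is thus a description of these 4 libraries. Rnu12 had a log2 difference of -0.25 (95% interval -0.56 to 0.06, edgeR adjusted p = 0.216) and passed when genes of low count were kept (edgeR adjusted p = 0.0395). For Rpph1 the difference was -0.04 (-0.24 to 0.17, edgeR adjusted p = 0.821) and for Rnu73b it was 0.23 (-0.22 to 0.67, edgeR adjusted p = 0.45). In this comparison 17.9% of genes were called higher in G9 and 16.9% lower, 34.8% in all.

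Over the 4 libraries, each gene's profile was centred on its own mean of log2 CPM and the root mean square difference between profiles was taken as the measure of likeness (14398 genes with a mean of at least 2 CPM). Rmrp and Rnu73b had the most alike profiles of the 4, with a difference of 0.134, and Rpph1 and Rnu12 followed at 0.243. The nearest other genes to Rmrp were Rpl14-ps1 at 0.498, Kctd16 at 0.616 and Vmn2r-ps54 at 0.631, beside a median of 1.33 over all eligible genes. Rpph1 was closest to Rpl14-ps1 at 0.229, Ebf2 at 0.26 and Kctd16 at 0.279 (median 0.948). The closest to Rnu12 were Cdkn1c at 0.446, Rplp2-ps1 at 0.45 and Ebf2 at 0.451 (median 1.05). For Rnu73b they were Rpl14-ps1 at 0.47, Kctd16 at 0.582 and Ebf2 at 0.65 (median 1.33). These 4 libraries are the ones by which the RNAs were chosen, so likeness of profile carries no test.

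None of the 11 tested genes near the short RNAs passed as higher and 2 passed as lower, in a table with 5.9% called higher and 4.66% lower. Parp2, a DNA repair polymerase gene whose promoter window is printed above, averaged 50.0 ± 3.23 CPM with dTAG-13 and 54.5 ± 0.152 CPM with DMSO (log2 difference -0.12 ± 0.0949, SE, edgeR adjusted p = 0.486). Ccnb1ip1, on the other side of Rpph1 and known for its part in meiotic crossing over, fell to 33.1 ± 3.43 CPM with dTAG-13, against 51.0 ± 12.8 CPM with DMSO (log2 difference -0.60, edgeR adjusted p = 1.635e-04; all means with SD, n = 2 each). Ccdc107, beside Rmrp, had 18.7 ± 0.939 CPM with dTAG-13 and 22.7 ± 0.829 CPM with DMSO (-0.29, edgeR adjusted p = 0.183), and Sit1, on the other side of Rmrp, was at or near 0 and not tested. Beside Rnu12, Poldip3 had a log2 difference of 0.01 (edgeR adjusted p = 0.975) and Cyb5r3 of 0.02 (edgeR adjusted p = 0.951). The second call was Tpm2, a tropomyosin gene that fell (-0.37, edgeR adjusted p = 0.00293, DESeq2 adjusted p = 0.0778). Without strand, reads where Rpph1 and Parp2 lie together cannot be told apart.

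Other structural RNAs analysed in the same table were few: 5 of the 33 listed, all of which passed the filter on low counts. One of the 5, Rn45s, is a long precursor and not a short RNA. Vaultrc5, a vault RNA, rose to 10.8 ± 2.87 CPM with dTAG-13, against 6.83 ± 1.69 CPM with DMSO (SD, n = 2 each; log2 difference 0.65, edgeR adjusted p = 0.0204, DESeq2 adjusted p = 0.312). Rn45s, the ribosomal RNA precursor and the substrate of RNase MRP, rose to 10370 ± 1339 CPM with dTAG-13, against 8642 ± 1075 CPM with DMSO (log2 difference 0.26, edgeR adjusted p = 1.589e-04). Rn4.5s, a small RNA, had 1.66 CPM with dTAG-13 and 0.606 CPM with DMSO (1.36, edgeR adjusted p = 0.0605). Terc, the telomerase RNA made by RNA polymerase II, had a log2 difference of -0.19 (edgeR adjusted p = 0.337), and Bc1, a neuronal RNA polymerase III transcript, of -0.05 (edgeR adjusted p = 0.803). The median of the 5 was 0.26, which is the value of Rn45s itself, beside -0.003 over all tested genes. Rows labelled ncRNA, Rmrp and Rpph1 among them, were called higher in 81 of 1188 (6.82%) and lower in 18 (1.52%). Over all tested genes 5.9% were called higher and 4.66% lower, so the share called higher is no result about these rows. Rnu12 and Rnu73b were the only 2 rows labelled snRNA.

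Among the protein partners of these RNAs, 1 of 74 tested genes passed as higher in nascent RNA and 3 as lower, in a table with 5.9% of genes called higher and 4.66% lower, so these counts are no result about the lists. Of 11 protein genes of RNase P and RNase MRP 0 rose and 0 fell (median log2 difference -0.02); Pop5, a shared subunit, had 23.8 ± 6.75 CPM with dTAG-13 and 20.4 ± 5.10 CPM with DMSO (SD, n = 2 each; edgeR adjusted p = 0.334). Of 14 minor spliceosome protein genes 1 rose and 1 fell: Rnpc3, which binds U12, rose by 0.27 on the log2 scale (edgeR adjusted p = 0.0203), and Snrnp25 fell by 0.59 (edgeR adjusted p = 0.0239). Of 23 genes of RNA polymerase III and its initiation factors 0 rose and 0 fell (median -0.01, range -0.20 to 0.12). Of 21 genes of the factors that bind small nuclear RNA promoters and of the Integrator complex, which cuts the ends of U RNAs, 0 rose and 2 fell: Ell2 fell by 0.30 (edgeR adjusted p = 0.00292) and Ints5 by 0.32 (edgeR adjusted p = 0.0128). Of 5 box C/D protein genes 0 passed in either direction (median -0.14). With DESeq2 none of these 5 lists held a call.

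**Figure D4:**
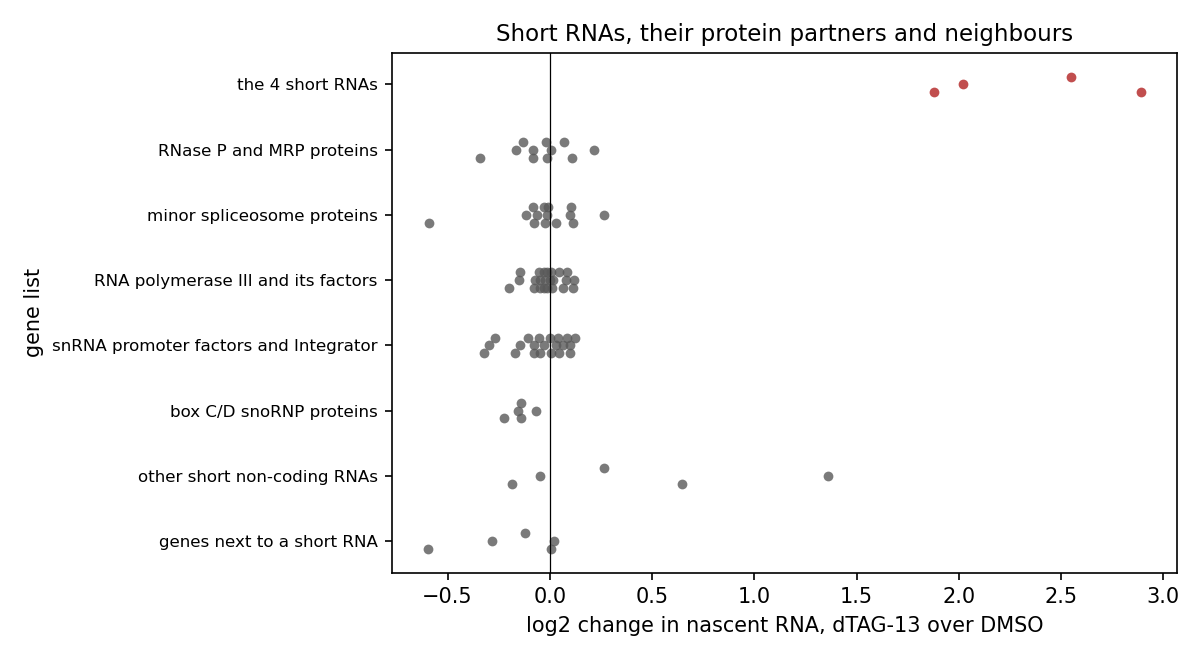
Log2 difference in nascent RNA (x axis, dTAG-13 over DMSO, RAD21-FKBP, day 7) of the tested genes of each list (rows, 1 point per gene). The 4 short RNAs lie between 1.88 and 2.89, while the genes of the 5 protein lists lie between -0.59 and 0.27. The row of other short non-coding RNAs includes Rn45s, a long precursor.

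In poly(A) RNA, Rnu12 and Rnu73b were at the edge of detection, while Rmrp and Rpph1 had low counts that passed the filter in all 3 tables. Whether any of the 4 RNAs carries a poly(A) tail was not examined. Their counts in poly(A) libraries may therefore not stand for their levels in the cells. Rnu12 had 0 to 2 counts in each of the 14 poly(A) libraries, and a count of 0 allows up to 3 counts, which is 0.0847 to 0.371 CPM in these libraries (counting error only). Rnu73b had 1 to 7 counts. Neither passed the filter on low counts in any of the 3 tables, so no fold is given. In RAD21-FKBP cells Rnu73b had 1 count in C4 and 2 in G9 with dTAG-13, against 2 in C4 and 3 in G9 with DMSO. From day 4 to day 7 of WAPL loss it had 1, 2 and 3 counts with dTAG-13 in H7 replicate 1, H7 replicate 2 and H2, against 7, 5 and 3 with DMSO in the same order. No test was run at these counts.

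Rmrp in poly(A) RNA of RAD21-FKBP cells at day 10 had 40 counts in C4 and 11 in G9 with dTAG-13, against 20 in C4 and 20 in G9 with DMSO. This was 1.51 CPM in C4 and 0.823 CPM in G9 with dTAG-13, against 0.839 CPM in C4 and 0.578 CPM in G9 with DMSO. The dTAG-13 library was the higher in both clones, while the arms overlapped. The log2 difference was 0.72 ± 0.365 (SE, 95% interval 0.004 to 1.44) and did not pass (edgeR adjusted p = 0.169), in a comparison with 9.83% of genes called higher and 8.89% lower. Stem and early embryoid body markers fell here in 7 of 12 (5 with DESeq2, 0 with clone left out). They summed to 2260 to 2310 CPM with dTAG-13 and 2610 to 2750 CPM with DMSO. Of the 5 feeder markers 3 fell and 0 rose (1 lower with DESeq2, 0 with clone left out). The feeder markers summed to 195 to 214 CPM with dTAG-13 and 201 to 209 CPM with DMSO. The log2 difference of Rmrp was between 0.225 and 1.114 with 1 library left out, where the clone term is lost too. It was lowest without the C4 dTAG-13 library. Rpph1 had 2.61 CPM in C4 and 2.24 CPM in G9 with dTAG-13, against 1.93 CPM in C4 and 2.43 CPM in G9 with DMSO. The arms overlapped and the clones went opposite ways (log2 difference 0.18, 95% interval -0.32 to 0.68, edgeR adjusted p = 0.695).

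With WAPL loss from day 4 to day 7, Rmrp had 0.542, 0.311 and 3.39 CPM with dTAG-13 in H7 replicate 1, H7 replicate 2 and H2, against 1.02, 0.567 and 5.69 CPM with DMSO in the same order. The dTAG-13 library was the lower in each of the 3 pairs, and clone H2 was well above H7 in both arms, so the arms overlapped. The log2 difference was -0.90 ± 0.336 (SE, 95% interval -1.67 to -0.13), which did not pass (edgeR adjusted p = 0.106, and 0.0572 with the replicate number as a block). Here 9.22% of the 14870 tested genes were called higher and 6.07% lower, 15.3% or 2273 in all, and 4103 genes with the block. Rpph1 had 1.86, 1.04 and 1.62 CPM with dTAG-13, against 2.77, 1.37 and 1.61 CPM with DMSO in the same order. It was lower in both H7 pairs and close to equal in H2 (log2 difference -0.47, 95% interval -1.33 to 0.39, edgeR adjusted p = 0.428). The difference was 0.002 without the first H7 DMSO library and -0.121 without the second H7 dTAG-13 library.

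With WAPL loss from day 7 to day 10, Rmrp had 0.823 and 0.846 CPM with dTAG-13, against 1.06 and 0.607 CPM with DMSO, so that the dTAG-13 values lay between those of DMSO (log2 difference 0.01, 95% interval -1.11 to 1.13, edgeR adjusted p = 0.999). Rpph1 had 0.906 and 0.956 CPM with dTAG-13, against 1.75 and 0.961 CPM with DMSO, and 1 DMSO library stood above the other 3 (-0.53, 95% interval -1.64 to 0.58, edgeR adjusted p = 0.918). Of 14110 tested genes 0% were called higher and 0% lower in edgeR, 926 had an unadjusted p under 0.05, and DESeq2 called 44. With the replicate number as a block, edgeR called 17.5% higher and 19% lower. Rmrp and Rpph1 did not pass with the block either (edgeR adjusted p = 0.891 and 0.365). Stem and early embryoid body markers moved with WAPL loss from day 4 to day 7 as well. They summed to 2290 to 2760 CPM with dTAG-13 and 3260 to 4250 CPM with DMSO, and 1 of 12 rose and 4 fell. The 5 feeder markers then summed to 83.3 to 105 CPM with dTAG-13 and 60.1 to 71.5 CPM with DMSO, and 3 rose and 1 fell. Over all tested genes 9.22% were called higher there and 6.07% lower. From day 7 to day 10, 0 of the 12 and 0 of the 5 passed (1 higher and 9 lower of the 12 with the block). The 12 then summed to 1880 to 2510 CPM with dTAG-13 and 2470 to 3120 CPM with DMSO, so the arms overlapped. The part of these markers in the values of Rmrp and Rpph1 was not tested.

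**Figure D5:**
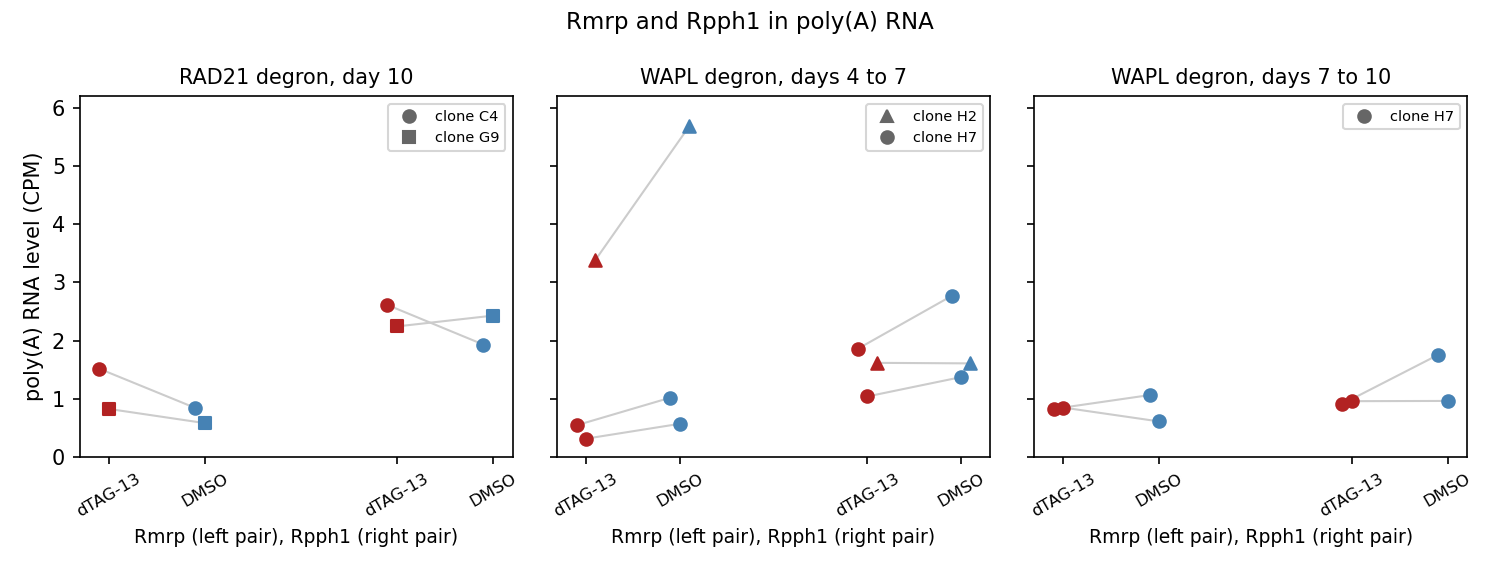
Poly(A) RNA level (CPM) of Rmrp and Rpph1 per library in RAD21-FKBP cells at day 10 and in WAPL-FKBP cells treated from day 4 to day 7 and from day 7 to day 10, each table scaled on its own. Symbols are clones and grey lines join libraries of 1 clone and replicate; Rmrp in clone H2 stands at 3.39 CPM with dTAG-13 and 5.69 CPM with DMSO, above all H7 libraries.

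Rps3a1, the host of Rnu73b and a ribosomal protein gene, was measured in poly(A) RNA. In RAD21-FKBP cells it averaged 47.8 ± 13.4 CPM with dTAG-13 and 33.0 ± 9.74 CPM with DMSO (SD, n = 2 each), with a log2 difference of 0.52 (edgeR adjusted p = 3.518e-12). The arms overlapped, and DESeq2 did not call it (adjusted p = 0.999). Neither did edgeR with any 1 library left out, where the clone term is lost too (log2 difference 0.219 to 0.868). With WAPL loss its log2 difference was 0.02 from day 4 to day 7 (edgeR adjusted p = 0.926) and -0.41 from day 7 to day 10 (edgeR adjusted p = 0.95). Ccnb1ip1, beside Rpph1, fell with WAPL loss to 5.35 ± 1.31 CPM with dTAG-13 from day 4 to day 7, against 12.8 ± 2.20 CPM with DMSO (SD, n = 3 each; log2 difference -1.26, edgeR adjusted p = 0.00251). Parp2 fell to 72.0 ± 2.44 CPM with dTAG-13, against 89.6 ± 1.63 CPM with DMSO (-0.32, edgeR adjusted p = 0.0476), a call that did not survive leaving out either H7 DMSO library (edgeR adjusted p 0.16 for the first and 0.202 for the second), the second H7 dTAG-13 library (0.0825), or the H2 library of dTAG-13 (0.287) or of DMSO (0.284).

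Tpm2, near Rmrp, rose to 169 ± 27.3 CPM with dTAG-13 after RAD21 loss, against 133 ± 15.6 CPM with DMSO (SD, n = 2 each; 0.34, edgeR adjusted p = 1.895e-07, DESeq2 0.0265). From day 4 to day 7 of WAPL loss it rose to 121 ± 17.7 CPM with dTAG-13, against 86.7 ± 15.2 CPM with DMSO (SD, n = 3 each; 0.49, edgeR adjusted p = 0.02195). The first call was lost with any 1 library left out, where the clone term is lost too (log2 difference 0.171 to 0.49). The second was lost without any 1 DMSO library or the H2 dTAG-13 library (edgeR adjusted p 0.0594 to 0.177).

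The protein genes were well measured in poly(A) RNA, and their calls stand beside 9.83% of all genes called higher and 8.89% lower after RAD21 loss. After RAD21 loss 2 of 11 protein genes of RNase P and RNase MRP rose and 0 fell: Pop5 had 75.2 ± 16.8 CPM with dTAG-13 and 62.5 ± 8.51 CPM with DMSO (log2 difference 0.26, edgeR adjusted p = 2.191e-04), and Pop4 68.3 ± 5.38 and 60.2 ± 0.662 CPM in the same order (0.18, edgeR adjusted p = 0.0195; SD, n = 2 each). Of 14 minor spliceosome protein genes 1 rose, Zrsr2 (0.22, edgeR adjusted p = 0.0023), and 0 fell. Of 23 RNA polymerase III genes 3 rose, Gtf3c6, Gtf3a and Polr3e, by 0.15 to 0.21 on the log2 scale, and 0 fell. Of 22 promoter factor and Integrator genes 2 rose and 2 fell, among them Pou2f1, the octamer-binding factor (0.25, edgeR adjusted p = 3.07e-04), and Ell2 (-0.29, edgeR adjusted p = 3.176e-05). DESeq2 called 0 genes of these lists, and edgeR with clone left out called 0. Each of the named calls was also lost with any 1 library left out, where the clone term is lost too. With WAPL loss from day 4 to day 7, 0 genes of these lists rose, beside 9.22% of all genes higher and 6.07% lower (14.8% and 12.8% with the block): 1 of 11 RNase P and RNase MRP genes fell (Rpp25l, -0.60, edgeR adjusted p = 0.032; 3 with the block), 2 of 23 RNA polymerase III genes fell (Gtf3a, -0.44, and Polr3b, -0.32; 5 with the block), and 1 of 22 promoter factor and Integrator genes fell (Ints7, -0.38; 5 with the block). Box C/D genes passed in 0 of 7 (3 lower with the block), and minor spliceosome genes in 0 of 14 with or without it. The calls of Rpp25l, Gtf3a, Polr3b and Ints7 were each lost when any 1 DMSO library, or the H2 dTAG-13 library, was left out (edgeR adjusted p between 0.0739 and 0.278).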

How the data were processed

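Poly(A) RNA was deposited by the authors as raw counts per gene, and PRO-seq by the authors in units of expected counts per gene, in steps of 0.5, which were rounded to whole numbers for the tests. Per the submitters' processing notes, Bowtie2, TopHat2, Novoalign, HOMER, DESeq2 and DESeq were among the tools, and mm9, hg19 and dm6 among the builds, with neither roles nor versions. How reads were assigned to genes, and whether by strand, is not stated there. Genes were kept by edgeR's filterByExpr (minimum count 10) and tested with edgeR 4.0.16 (R 4.3.3; TMM, quasi-likelihood, clone as a term where there were 2 clones), with Benjamini-Hochberg adjustment over all tested genes and a threshold of 0.05. The fits leave 1 residual degree of freedom in each RAD21 table, 3 from day 4 to day 7 and 2 from day 7 to day 10. The method was tested on simulated data. Alternatives were RLE scaling, library totals, other filters, DESeq2 1.42.0, no clone term, a replicate block and leaving out each library. The 4 RNAs, the gene lists and the choice of tests were made with earlier results of these data known. Named genes were the 4 RNAs, their neighbours, up to 4 genes of each list by smallest p, and the 3 nearest profiles; Rad21, Wapl and the next-highest genes were named after their values were seen. Libraries of a group differed by a chi-square per gene of 12.9 to 55.3, so none was counted as 1 sample. With WAPL loss from day 4 to day 7, same-numbered libraries deviated together (r = 0.61, 0.65 and 0.73). Number 3 is clone H2 and the others are H7, so a difference between clones may enter these values. They do not settle whether the libraries were paired, and a pair in the text means libraries of 1 number.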

Additional observations from a re-analysis of the deposited data

Results flagged for a closer look

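Rmrp in poly(A) RNA went opposite ways with RAD21 loss at day 10 and with WAPL loss from day 4 to day 7. With RAD21 loss it was higher with dTAG-13 than with DMSO in 2 of 2 clones (log2 ratio 0.85 in C4 and 0.51 in G9), and with WAPL loss from day 4 to day 7 it was lower in 3 of 3 pairs (-0.91 and -0.87 in H7, -0.75 in H2). The fitted log2 differences, 0.72 and -0.90, lie 1.62 apart. With 1 library left out, and the clone term with it, the first was between 0.225 and 1.114. With WAPL loss from day 7 to day 10, the window that ends on the day of the RAD21 libraries, the pairs were at -0.37 and 0.48 and the fitted difference was 0.01. Neither passed on its own, the counts were between 7 and 46 per library, the tables differ in day and in length of treatment, and the difference between them was not tested. Counts in poly(A) libraries may also not stand for the level of this RNA in the cells.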

How the results depend on the processing

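The log2 differences of the 4 RNAs in PRO-seq kept their sign under every alternative run, with leave-one-out ranges of 2.075 to 3.017 for Rmrp, 1.756 to 1.963 for Rpph1, 1.54 to 2.355 for Rnu12 and 2.431 to 3.249 for Rnu73b. Counts of called genes were far less stable. In PRO-seq 1743 genes were called, 514 with DESeq2, 0 with no clone term (no replicate block) and 0 with any 1 library left out, where the clone term is lost too. Between clones DESeq2 called 2835, against 5736. In RAD21 poly(A) RNA 2708 were called, 472 with DESeq2, 1 with no clone term and 16 to 94 with 1 library left out. From day 4 to day 7 of WAPL loss 2273 were called, 994 with no clone term, 4103 with the replicate block and 340 to 4433 with 1 library left out. From day 7 to day 10, 0 were called, 44 with DESeq2, 5141 with the replicate block and 27 to 143 with 1 library left out; there the 2 pairs deviated together (r = 0.88) but share only a number. With 1 library left in an arm, that library is assumed to vary like the others. In RAD21 poly(A) RNA, Ell2 changed sign without DMSO replicate 1 (range over libraries left out -0.543 to 0.009) and Pou2f1 without dTAG-13 replicate 1 or DMSO replicate 2 (-0.017 to 0.543). Leaving out a library there also dropped the clone term. The cause of these changes of sign was not tested. Over all results for single genes 1545 alternatives kept their side of the threshold, 194 lost a call and 52 gained one. Leaving out rows of at most 500 bases was not run, as the files hold no gene length. Leaving structural RNA rows out of the scaling and doubling the expected counts were added after seeing the data; 1743 and 1715 genes were then called in the nascent arm contrast, and no gene named in the text changed its call.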
